A study of Saccharomyces cerevisiae with 6 samples.

Results

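The heat response of wild-type budding yeast was read from 3 of the 6 arrays of this series. Each array set RNA of cells held at 39 °C for 20 minutes against RNA of the same strain kept at 25 °C as a control. The strain was BY4741, a laboratory haploid of Saccharomyces cerevisiae, grown to mid-log phase in rich medium in 3 independent cultures of 200 ml. It carries whole or partial deletions of HIS3, LEU2, MET17 and URA3, called below the genes missing from the strain. The other 3 arrays held the same contrast in BY4741 without RPD3, which encodes a histone deacetylase, and are used only where the strains are compared. Members were all 4073 genes to which the platform's annotation gives a symbol. The deposited log ratios of the spots of each gene were averaged on each array, and the mean of the 3 arrays was tested against 0.

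Per the labels, 500 ng of each RNA was labelled by linear amplification, with Cy3 for heated and Cy5 for control cells on every array. Dyes were not exchanged, so a dye effect and heat cannot be told apart within the wild type. No source used here states the log base or sign of the deposited ratios. By default limma takes Cy5 over Cy3, which would be control over heated here. The ratios were instead read as log2 of heated over control, the likely direction, because 4 heat shock genes were positive on every wild-type array: HSP12 at 6.66, 6.08 and 6.43, SSA4 at 5.84, 4.79 and 5.36, HSP26 at 5.15, 4.30 and 4.83 and HSP104 at 4.20, 3.65 and 4.26. Equal amounts of RNA entered both channels, so a ratio is relative to the RNA of the cell as a whole, and fewer cells in a state and less RNA per cell cannot be told apart. Of the genes missing from the strain, HIS3 (0.15 ± 0.09), LEU2 (0.18 ± 0.11), MET17 (0.12 ± 0.065) and URA3 (0.15 ± 0.10; means ± SD, n = 3) were not called. Their median was above 0 on each array, at 0.25, 0.12 and 0.06 on arrays 1 to 3, and what their spots measure was not tested. Among the mating-type genes, cells of either type could be seen only as ratios, in which 1 of 7 a-specific genes rose and 5 fell (0 and 4 without array 1), and 1 of 3 alpha-specific genes rose.

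Yeast moved from mild to high temperature is known to run a broad stress programme besides the making of chaperones. The paired activators Msn2 and Msn4, held back by protein kinase A in rich glucose medium, and the heat shock factor Hsf1 are its best known regulators. The programme is known for carbohydrate reserves, antioxidant enzymes and alternative isoforms of metabolic enzymes on the rising side, and for ribosome production and growth on the falling side. Ribosomal, chaperone, trehalose and glycogen genes (360 genes, of which 57 rose and 289 fell) are set aside below, and the remaining 3713 genes are described by function.

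A gene is said to have risen or fallen where limma's adjusted p was under 0.05 over all 4073 genes. By this rule 1237 genes rose (30.4% of all), 1534 fell (37.7%) and 1302 were not called, so 68.0% of all genes were called. A change of at least 2-fold was called for 350 rising genes (8.59%) and 487 falling genes (12%). These shares are the background against which each group is read. Rises made up 44.6% of calls, and 32.9% (911 risen, 1857 fallen) when each array was centred on the genes missing from the strain, which moved every gene by -0.14 at the median. Across genes, which are not independent replicates, the arrays correlated with r = 0.952 to 0.980. Outside the genes set aside, 309 rose and 253 fell by at least 2-fold, and 33 rose but only 2 fell by at least 8-fold. The 309 risen genes had medians of 1.64, 1.49 and 1.55 on arrays 1 to 3, and the 253 fallen genes had medians of -1.40, -1.30 and -1.47.

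**Figure D1:**
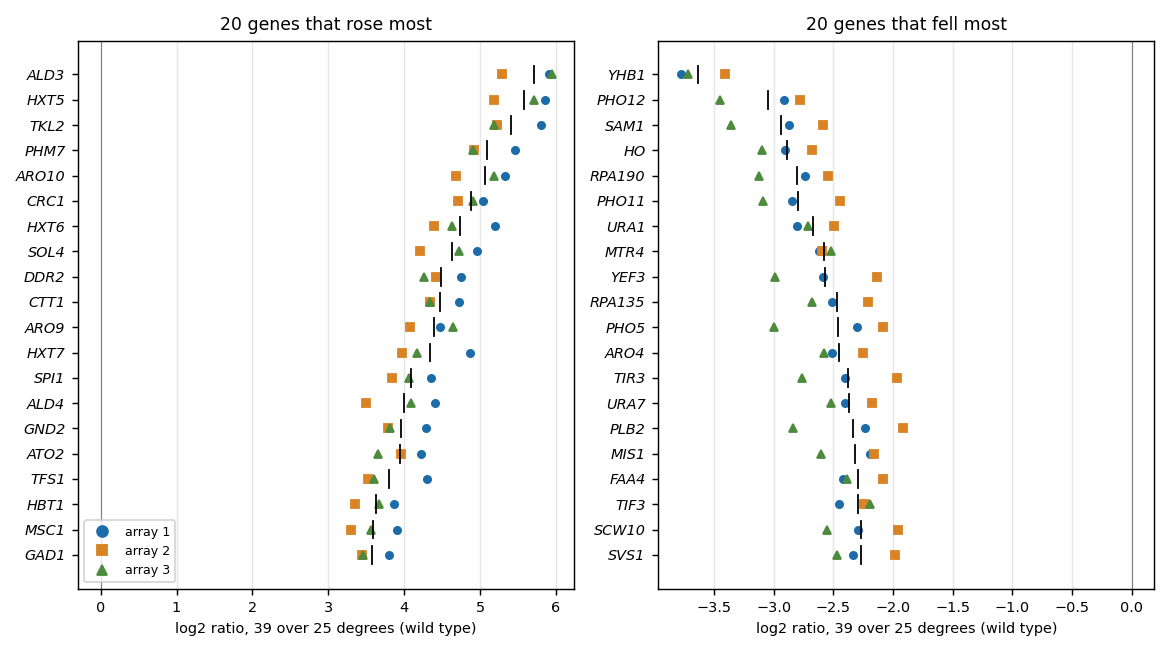
Log2 ratio of 39 °C over 25 °C on each of the 3 wild-type arrays for the 20 highest and 20 lowest genes outside the ribosomal, chaperone, trehalose and glycogen lists; points are arrays and bars are means. ALD3 leads at 5.71 and YHB1 is lowest at -3.63, and the 3 arrays of every gene shown lie on the same side of 0.

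Enzymes and transporters of carbon and nitrogen use were among the genes at the upper end. ALD3, a cytosolic aldehyde dehydrogenase, read 5.91, 5.29 and 5.94 on arrays 1 to 3, a 52.4-fold rise (5.71 ± 0.37, adjusted p = 4.66e-08). HXT5, a hexose transporter, read 5.85, 5.18 and 5.71 (47.9-fold, adjusted p = 4.66e-08). TKL2, a minor transketolase of the pentose phosphate pathway, read 5.80, 5.23 and 5.18 (42.3-fold, adjusted p = 4.66e-08). All 3 genes were higher on array 1 than on array 2. They were followed by PHM7, a membrane protein, at 5.09 ± 0.32, ARO10, a decarboxylase of aromatic amino acid breakdown, at 5.07 ± 0.34, and CRC1, the mitochondrial carnitine carrier, at 4.88 ± 0.17. DDR2, known to respond to many stresses, was at 4.48 ± 0.25, CTT1, the cytosolic catalase, at 4.47 ± 0.22, and the wall protein gene SPI1 at 4.09 ± 0.26. TFS1, an inhibitor of the vacuolar carboxypeptidase Y, was at 3.81 ± 0.43, HBT1 at 3.63 ± 0.26 and MSC1 at 3.59 ± 0.30.

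At the lower end YHB1, a flavohemoglobin that removes nitric oxide, read -3.78, -3.41 and -3.71 on the 3 arrays, a 12.4-fold fall (adjusted p = 6.71e-08). HO, the endonuclease gene of mating-type switching, read -2.90, -2.68 and -3.09 (7.42-fold, adjusted p = 1.56e-07). SAM1, an S-adenosylmethionine synthetase, read -2.87, -2.58 and -3.36 (7.65-fold, adjusted p = 5.15e-07). Among these 3 genes array 2 was the least changed each time. MTR4, an RNA helicase that feeds the nuclear exosome, was at -2.58 ± 0.05, and YEF3, a translation elongation factor, at -2.57 ± 0.43. PLB2, a phospholipase, was at -2.33 ± 0.47, SCW10, a glucanase-like wall protein, at -2.27 ± 0.30, and the wall gene SVS1 at -2.27 ± 0.25.

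Sugar entry and the first step of glycolysis were split by isoform. The hexose transporters of high glucose affinity rose, those of low affinity fell, and 3 of 4 sugar kinases rose. HXT6 read 5.20, 4.39 and 4.63 and HXT7 4.87, 3.98 and 4.17, rises of 26.7-fold and 20.2-fold, though these near-identical copies can share hybridisation and are not separable. HXT1, a low-affinity transporter, read -1.60, -1.57 and -2.14 and fell by 3.41-fold (adjusted p = 3.9e-06), and HXT3 read -2.03, -1.73 and -1.99 and fell by 3.78-fold (adjusted p = 5.65e-07). On every array HXT6 and HXT7 lay above 0 and HXT1 and HXT3 below it. HXT2, of high affinity, rose less (0.68 ± 0.22), and the glucose sensor gene RGT2, named after its values were seen, was at 1.35 ± 0.11. Of the 26 measured genes of hexose transport and glucose sensing, 16 rose and 6 fell, with a median of 0.31.

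Hexokinase HXK1 read 3.41, 2.47 and 3.08, a 7.92-fold rise (adjusted p = 9.35e-07). Glucokinase GLK1 read 1.74, 1.22 and 1.13 and its paralog EMI2 1.73, 1.36 and 1.43. HXK2, the main hexokinase of growth on glucose, was instead slightly below 0 at -0.34, -0.22 and -0.44 (adjusted p = 0.00829). In the glycolysis list 13 of 22 genes rose and 5 fell (median 0.51). The minor pyruvate kinase PYK2 was at 2.22 ± 0.31 and the minor phosphoglycerate mutase GPM2 at 1.80 ± 0.14, while GPM3 fell (-0.79 ± 0.081). CDC19, the main pyruvate kinase, was at -0.34 ± 0.12 (adjusted p = 0.00726). The calls of HXK2 and CDC19 were lost without array 1 (adjusted p = 0.0725 for both). Genes for other sugars moved with the minor isoforms: 5 of 7 genes of maltose and sucrose use rose and 0 fell. Invertase SUC2 read 1.89, 1.62 and 1.26 and the maltase gene MAL12 1.72, 2.01 and 1.83.

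Genes that carry acetaldehyde through acetate to acetyl-CoA, and acetyl units into mitochondria, were among the most raised. In the list of fermentation and acetaldehyde use 10 of 18 genes rose and 2 fell (median 0.37). The mitochondrial aldehyde dehydrogenase ALD4 read 4.40, 3.49 and 4.09 (15.9-fold), whereas ALD5, another mitochondrial form, read -1.96, -1.55 and -1.74 and fell by 3.36-fold (adjusted p = 1.32e-06). ACS1, an acetyl-CoA synthetase, was at 3.20 ± 0.36, and ACS2, the form used on glucose, was not called (-0.16 ± 0.11). All 4 carnitine shuttle genes rose: CRC1 read 5.04, 4.70 and 4.91, the carnitine acetyltransferases CAT2 3.38, 3.15 and 3.10, YAT1 2.20, 2.39 and 1.98 and YAT2 2.13, 1.88 and 1.74. The lowest of these values was 1.74. The acetate and ammonium transporter genes ATO2 (3.94 ± 0.29) and ADY2 (2.87 ± 0.26) and the lactate transporter JEN1 (3.10 ± 0.25) rose as well.

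Of the genes of gluconeogenesis and the glyoxylate cycle, 16 of 21 rose and 1 fell (median 0.74). Peroxisomal citrate synthase CIT2 was at 2.82 ± 0.31, and ADR1, an activator of genes for non-fermentable carbon, at 2.81 ± 0.09. The activators CAT8 (2.57 ± 0.13) and SIP4 (1.96 ± 0.21), named after their values were seen, also rose. The 2 genes of pyruvate carboxylase parted, with PYC1 at 2.75, 2.38 and 2.75 and PYC2 at -0.48, -0.45 and -0.45. Among peroxisome and fatty acid oxidation genes 23 of 37 rose and 5 fell (median 0.46). Within them 5 of 6 beta-oxidation enzymes rose, led by the thiolase POT1 (2.82, 3.03 and 2.93) and the acyl-CoA oxidase POX1 (2.45, 2.44 and 2.07). Of the peroxins, which build the organelle, 6 of 18 rose and 4 fell, with PEX25 lowest at -0.53 ± 0.068. Without array 1 these counts were 5 and 1, and without array 3 they were 9 and 2.

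The pentose phosphate pathway makes NADPH and ribose, and its oxidative and non-oxidative steps went different ways. Of 12 measured genes 7 rose and 4 fell. Glucose-6-phosphate dehydrogenase ZWF1, the entry enzyme, read 1.41, 1.41 and 0.90 (2.36-fold). The lactonase SOL4 was at 4.63 ± 0.39 and SOL3 at 0.49 ± 0.21, and 6-phosphogluconate dehydrogenase GND2 was at 3.96 ± 0.28 while its main form GND1 was not called (0.11 ± 0.13). On the ribose side the isomerase RKI1 read -2.22, -2.06 and -2.14 and fell by 4.41-fold (adjusted p = 2.33e-07). The epimerase RPE1 (-0.90 ± 0.36), the transaldolase TAL1 (-0.35 ± 0.10) and the main transketolase TKL1 (-0.67 ± 0.11) fell too. TKL2, at 5.40 ± 0.35, rose on that side. The 7 risen genes include others not named here.

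Glycerol genes rose in 10 of 12 cases with 0 falls (median 1.18). Both steps of its synthesis were included, glycerol-3-phosphate dehydrogenase GPD1 at 1.80 ± 0.22 and the phosphatase GPP2 at 1.38 ± 0.20. Those of its breakdown were GCY1 at 3.16 ± 0.29, DAK1 at 1.76 ± 0.25, DAK2 at 1.97 ± 0.18 and GUT2 at 1.94 ± 0.15. The glycerol channel gene FPS1 read -0.33, -0.25 and 0.01 and was not called. Aldo-keto reductases and related detoxification enzymes rose in 18 of 23 cases (median 0.82), with the aldose reductase GRE3 at 3.10 ± 0.33, butanediol dehydrogenase BDH1 at 2.21 ± 0.19, and the nitroreductase-like FRM2 lowest at -0.64 ± 0.21.

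Oxidative defence was mixed, with 20 of 34 genes risen and 11 fallen. CTT1 read 4.72, 4.34 and 4.34, against 1.15, 1.22 and 0.98 for the peroxisomal catalase CTA1. The peroxiredoxin TSA2 read 3.08, 2.97 and 3.26, while its abundant paralog TSA1 was not called at 0.05, 0.17 and 0.10. The glutaredoxin GRX1 was at 1.65 ± 0.025 and mitochondrial superoxide dismutase SOD2 at 1.17 ± 0.14. On the falling side were YHB1, the glutathione peroxidase GPX2 (-1.44 ± 0.046), glutathione synthesis gene GSH1 (-0.74 ± 0.15) and thioredoxin TRX1 (-0.86 ± 0.23). SOD2, GPX2 and GSH1 were chosen after their values were seen.

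Respiratory complexes differed in size of response. Succinate dehydrogenase, complex II, which also serves the tricarboxylic acid cycle, rose in all 4 subunits measured: SDH1 read 1.80, 1.59 and 1.55, SDH2 1.14, 1.19 and 1.33, SDH3 1.35, 1.19 and 0.91 and SDH4 1.91, 1.61 and 1.27. Complex III rose in 8 of 9 subunits (median 1.06) and complex IV in 7 of 9 (median 0.41), while ATP synthase had 6 of 14 subunits risen, 1 fallen and none at 2-fold. Its median was 0.07, and without array 1 only 2 of its subunits rose and none fell. Centred on the genes missing from the strain, none of them rose and 2 fell. The inhibitor INH1, known to hold back ATP hydrolysis by the enzyme, read 1.92, 1.95 and 1.89 (3.79-fold, adjusted p = 3.25e-07), and the related STF1 and STF2 were at 1.14 ± 0.25 and 1.96 ± 0.23.

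**Figure D2:**
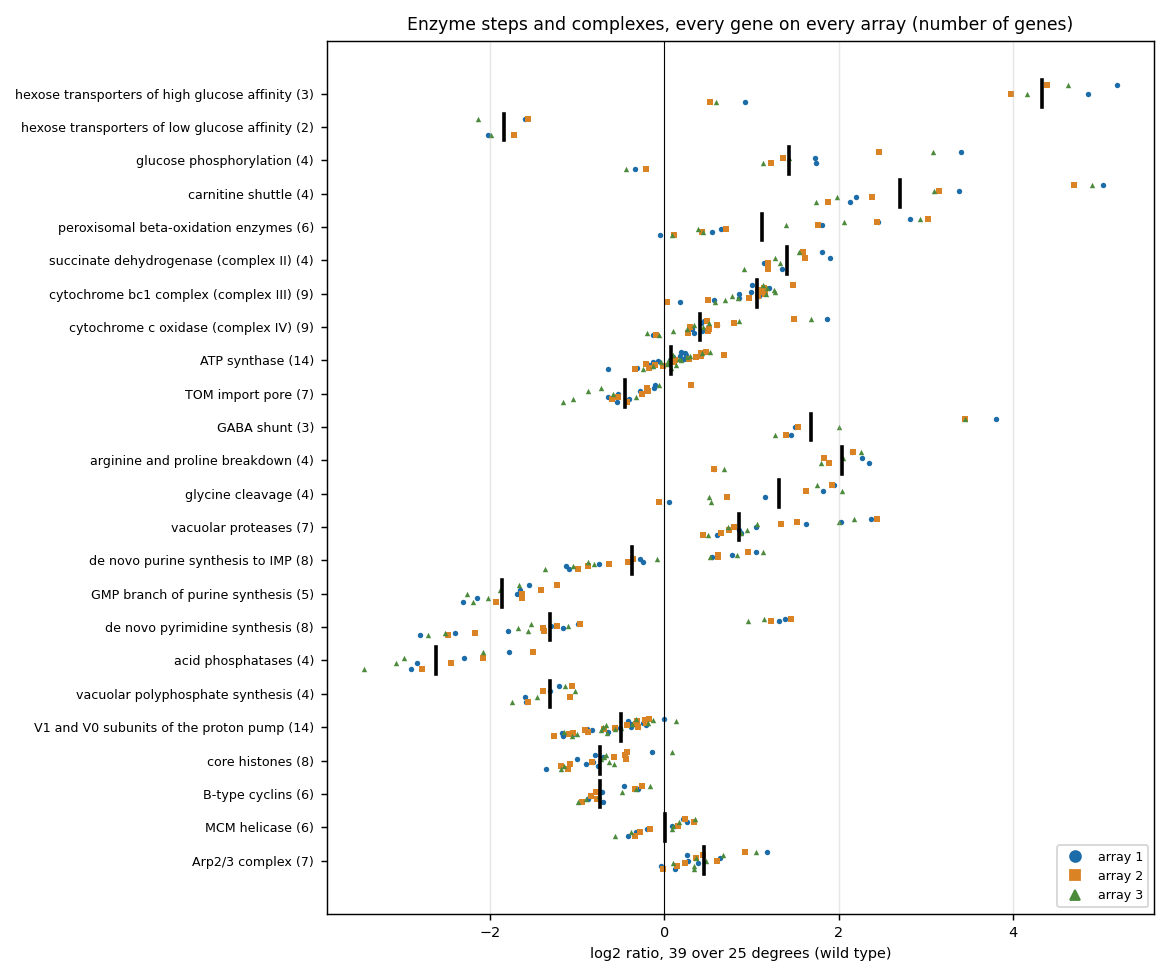
Log2 ratio of 39 °C over 25 °C on the 3 wild-type arrays of each measured subunit or enzyme, by complex or step; each point is 1 gene on 1 array and each bar is the median of the gene means. Carnitine shuttle genes lie above 1.7 on every array, ATP synthase subunits lie on both sides of 0, and acid phosphatases and the GMP branch lie below -1.

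The external NADH dehydrogenase NDE2 read 3.22, 3.29 and 2.64, though its spots spread widely on 1 array (SD 0.94 at most), and lactate dehydrogenase CYB2 read 2.79, 2.96 and 2.96. CYC7, the hypoxic form of cytochrome c, read 1.89, 2.36 and 2.32, and CYC1, the aerobic form, -0.28, -0.19 and -0.60 (adjusted p = 0.0132, 0.0653 without array 1, and a mean of -0.23 without array 3). In all 34 of 48 electron transport and ATP synthase genes rose and 3 fell, or 22 and 5 when centred on the genes missing from the strain. The lowest was HAP3, a subunit of the activator of respiratory genes (-0.62 ± 0.29). In the tricarboxylic acid cycle list 18 of 25 genes rose, with citrate synthases CIT3 at 3.06 ± 0.06 and CIT1 at 2.65 ± 0.43, and 3 fell, with malic enzyme MAE1 lowest (-1.11 ± 0.31). Mitochondrial carriers and import genes ran the other way, with 9 of 45 risen and 23 fallen (median -0.31). The carriers ODC2 (-1.26 ± 0.11), YMC1 (-1.20 ± 0.46) and GGC1 (-1.17 ± 0.21) fell, and 6 of 7 subunits of the import pore of the outer membrane fell, or 4 without array 1. The counts for carriers and import were 5 risen and 16 fallen without array 1.

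Most measured genes that take up and break down nitrogen compounds rose, and genes that make amino acids differed by pathway. For use of nitrogen sources 24 of 30 genes rose and 3 fell (median 0.60). ARO10 read 5.33, 4.68 and 5.19 and the aminotransferase ARO9, which acts before it in the Ehrlich pathway, 4.47, 4.07 and 4.64. The branched-chain aminotransferases of that pathway parted, with cytosolic BAT2 at 1.60, 1.17 and 1.54 and mitochondrial BAT1 at -2.06, -1.87 and -2.61, and ARO8 fell (-0.83 ± 0.21). All 3 GABA shunt genes rose: glutamate decarboxylase GAD1 read 3.81, 3.45 and 3.46, UGA1 was at 1.37 ± 0.092 and UGA2 at 1.68 ± 0.29. The breakdown enzymes of arginine, CAR1 (2.05 ± 0.22) and CAR2 (2.01 ± 0.29), and of proline, PUT1 (2.19 ± 0.056) and PUT2 (0.61 ± 0.066), rose in all 4 cases. Glycine cleavage genes GCV1 (1.83 ± 0.21), GCV2 (1.88 ± 0.11) and GCV3 (0.79 ± 0.33) rose, while LPD1, shared with other dehydrogenases, was not called (0.17 ± 0.32). Asparaginase ASP1 was the lowest of the list (-2.11 ± 0.42).

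Amino acid and peptide permeases rose in 22 of 33 cases and fell in 5 (median 0.46). The proline permease PUT4 was at 2.59 ± 0.29 and AGP2, a permease-like sensor, at 2.26 ± 0.22, and the oligopeptide transporter OPT1 was lowest (-0.999 ± 0.45). In lysine, histidine and aromatic synthesis 18 of 29 genes fell and 4 rose (median -0.58). ARO4, the entry enzyme of aromatic synthesis, read -2.52, -2.26 and -2.58 (5.47-fold lower, adjusted p = 2.3e-07), and ARO2 and LYS4 were at -2.13 ± 0.34 and -1.93 ± 0.47. In branched-chain, threonine, serine and asparagine synthesis 17 of 29 fell, with ILV3 at -2.10 ± 0.35 and LEU1 at -1.42 ± 0.21. CHA1, which breaks down serine and threonine, rose in that list (2.18 ± 0.42). In arginine, proline and glutamate synthesis 7 of 19 rose and 7 fell. Sulfur amino acid genes were divided, with 13 of 35 fallen and 7 risen, near the background. SAM1 and the folate enzyme MIS1 (-2.32 ± 0.25) fell most, and MET13, which makes the methyl donor of methionine synthesis, was at 1.00 ± 0.37.

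Most genes of nucleotide synthesis fell, and in the branch of purine synthesis that leads to GMP all 5 measured genes fell by at least 2-fold. The IMP dehydrogenases IMD3 and IMD4 read -2.31, -1.94 and -2.20 and -1.70, -1.63 and -2.27, GMP synthase GUA1 -2.16, -1.63 and -2.03, and IMD2 and the kinase GUK1 were at -1.66 ± 0.23 and -1.48 ± 0.23. On the shared path to IMP 3 of 8 genes rose and 5 fell, among them ADE17 at 1.05 ± 0.089. The purine list as a whole had 21 of 32 genes fallen and 7 risen (median -0.79). In pyrimidine synthesis 6 of 8 genes fell by at least 2-fold. Dihydroorotate dehydrogenase URA1 read -2.81, -2.49 and -2.71 (6.37-fold, adjusted p = 1.56e-07) and CTP synthase URA7 -2.41, -2.17 and -2.52. The minor forms went up, URA10 to 1.39, 1.45 and 1.14 against -1.79, -1.38 and -1.56 for URA5, and URA8 to 1.32, 1.22 and 0.96. Of the ribonucleotide reductase genes RNR1 fell (-2.10 ± 0.14) and RNR3, known to respond to DNA damage, rose (0.55 ± 0.15).

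Of 27 measured phosphate genes 19 fell, 10 of them by at least 2-fold, and 3 rose (median -0.72). The secreted acid phosphatases were lowest, with PHO5 at -2.30, -2.09 and -2.995, PHO11 at -2.85, -2.45 and -3.09, PHO12 at -2.92, -2.78 and -3.45 and PHO3 at -1.78, -1.51 and -2.08. PHO11 and PHO12 are near-identical and not separable here. All 4 genes of vacuolar polyphosphate synthesis fell: VTC1 (-1.39 ± 0.27), VTC2 (-1.24 ± 0.19), VTC3 (-1.64 ± 0.097) and VTC4 (-1.14 ± 0.072). PHM8, a phosphatase induced by phosphate need, rose (2.06 ± 0.26). The vacuolar proton pump had 14 of 20 genes fallen (median -0.45), with subunits VMA8 at -1.17 ± 0.099, VMA10 at -1.06 ± 0.047 and VMA6 at -0.97 ± 0.27, and OXR1, known to take the pump apart, at 0.88 ± 0.062. At the plasma membrane the sodium pump genes ENA1 (2.51 ± 0.28) and ENA2 (2.08 ± 0.30), also near-identical, rose. The proton pump genes parted, PMA1 at -0.80, -0.58 and -0.56 and its minor form PMA2 at 0.94, 1.09 and 0.63.

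Most sterol and fatty acid synthesis enzymes fell, while phospholipid and sphingolipid genes went both ways, with 11 of 29 and 10 of 28 risen and 5 and 8 fallen. In ergosterol synthesis 15 of 22 pathway enzymes fell and 2 rose (median -0.55). Of the wider list the acetyltransferase ATF2 fell most (-2.04, -1.78 and -2.52, 4.32-fold), followed by the sterol-binding PRY1 (-1.25 ± 0.44) and PRY2 (-1.14 ± 0.22), and the sterol esterification enzyme ARE2 rose to 2.29, 1.99 and 1.95. Fatty acid synthase genes FAS1 (-1.46 ± 0.18) and FAS2 (-0.88 ± 0.17), acetyl-CoA carboxylase ACC1 (-0.82 ± 0.20), desaturase OLE1 (-1.83 ± 0.30) and elongase ELO3 (-1.63 ± 0.13) all fell. Of the 6 genes measured for these steps, 1 was not called, at 0.15. The whole list of fatty acid synthesis and triglyceride turnover was more mixed, with 12 of 27 genes fallen and 7 risen (median -0.20). The acyl-CoA synthetases differed, FAA4 at -2.42, -2.09 and -2.38 and FAA1 at 2.51, 2.36 and 2.92. The ceramidases YPC1 (2.00 ± 0.15) and YDC1 (1.34 ± 0.26) rose, as did INO1 (1.38 ± 0.30), which starts inositol synthesis. Of 5 eisosome and membrane domain genes 4 rose, NCE102 most (1.53 ± 0.49), and SUR7 was not called (-0.21 ± 0.39).

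Cell wall genes changed in both directions, 22 of 63 up and 23 down, close to the share of all genes. At the extremes of the list SPI1 read 4.36, 3.85 and 4.06, PLB2 -2.24, -1.92 and -2.84 and SCW10 -2.29, -1.96 and -2.55. TIR3, counted under heme and hypoxic genes, read -2.40, -1.96 and -2.76, and FIT1 -1.79, -1.60 and -2.19. Glucan synthase showed a change of subunit: GSC2, used under stress, read 1.31, 0.86 and 1.03, and FKS1, used in growth, -0.88, -1.22 and -1.47. Of the regulators in the wall integrity list BAG7 (2.54 ± 0.17), the sensor MTL1 (1.79 ± 0.14) and the exchange factor ROM1 (1.58 ± 0.21) rose, and 18 of 40 genes rose in all. The wall kinase SLT2 rose to 1.32, 1.03 and 1.55, while MKK1 was not called (0.16 ± 0.088). Mating genes at the falling end were the agglutinin AGA1 (-1.51 ± 0.40), the activator STE12 (-1.37 ± 0.095) and the receptor STE2 (-0.84 ± 0.18). The list of osmotic stress and mating signalling went both ways, with 18 of 64 genes risen, up to 2.15, and 22 fallen, near the share of all genes.

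Genes of autophagy and the vacuolar hydrolases had a median of 0.71, against 0.24 for the proteasome, the other main route of protein breakdown. In the autophagy list 34 of 41 genes rose, 14 by at least 2-fold, and 0 fell. All 7 vacuolar proteases rose, with proteinase B PRB1 at 2.37, 2.45 and 2.17 and aminopeptidase APE1 at 2.03, 1.52 and 2.00. The acid trehalase ATH1, counted here as a vacuolar hydrolase although it acts on trehalose, was at 1.94 ± 0.22. ATG10 read -0.05, -0.14 and -0.23 without a call. ATG8, a membrane tag of autophagy, was at 1.30 ± 0.36 and ATG1, its kinase, at 0.92 ± 0.13, both chosen after their values were seen. In the proteasome 19 of 38 genes rose and 2 fell, none by 2-fold. Without array 1 the counts were 12 and 0, and 6 and 5 when centred on the genes missing from the strain. The highest were ECM29 (0.76 ± 0.21), the activator RPN4 (0.69 ± 0.071) and RPN9 (0.56 ± 0.13). In the ubiquitin list 35 of 69 rose and 12 fell, led by polyubiquitin UBI4 at 2.27, 1.66 and 1.93, with BRE5, a cofactor of ubiquitin removal, lowest (-1.29 ± 0.46).

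Of 95 genes of the secretory pathway 53 fell, 8 of them by at least 2-fold, and 10 rose (median -0.26), or 34 and 6 without array 1. Glycosylation and folding in the endoplasmic reticulum had 46 of 69 fallen and 9 risen (median -0.36). Phosphomannomutase SEC53 read -1.93, -1.66 and -2.13, the mannosyltransferase MNN1 -1.88, -1.91 and -1.84 and PSA1, which makes GDP-mannose, -1.86, -1.42 and -1.69. The value closest to 0 among them was -1.42. The lipid transfer protein SEC14 (-1.48 ± 0.17) and the translocon subunit SSS1 (-1.29 ± 0.26) fell as well. The oxidase ERO1, which forms disulfide bonds, rose (1.49 ± 0.27), and so did the cargo receptor ERV29 (1.00 ± 0.077).

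Genes that make and handle RNA had more falls than rises in each list given here, as did all genes together (37.7% fallen against 30.4% risen). RNA polymerases I and III had 28 of 40 genes fallen and 0 risen (median -0.47). The 2 large subunits of polymerase I were lowest, RPA190 at -2.74, -2.54 and -3.12 and RPA135 at -2.51, -2.21 and -2.68, and the polymerase III factor gene TFC3 was highest without a call (0.11 ± 0.28). Among translation factors and tRNA synthetases 55 of 66 fell, 38 by at least 2-fold, and 2 rose (median -1.08). YEF3 read -2.59, -2.14 and -2.99 while its paralog HEF3 read 1.47, 1.38 and 1.43. The initiation factor TIF3 was at -2.30 ± 0.13 and leucyl-tRNA synthetase CDC60 at -1.95 ± 0.16. The helicase DBP1 rose (1.52 ± 0.036).

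In tRNA and rRNA modification 36 of 48 fell and 1 rose (median -0.70), with both subunits of a tRNA guanine methyltransferase, TRM8 (-1.68 ± 0.082) and TRM82 (-1.60 ± 0.20), near the bottom. For RNA decay 32 of 55 fell, and 9 of 10 exosome subunits did. MTR4 read -2.62, -2.59 and -2.52, the nuclease RAT1 was at -1.26 ± 0.015 and RRP6 at -1.23 ± 0.058, and EDC2, an activator of decapping, rose (1.67 ± 0.19). The nuclear pore and transport list had 34 of 51 fallen (median -0.46). The import receptor KAP123 was at -1.84 ± 0.30, and the 2 Ran genes parted with GSP1 at -0.70, -0.51 and -0.84 and GSP2 at 1.49, 1.63 and 1.81. In general transcription 39 of 78 fell and 11 rose, none by 2-fold, or 24 and 3 without array 1. In splicing and end formation 27 of 81 fell and 13 rose, a share of falls not above that of all genes. The counts were 16 and 3 without array 1 and 17 and 6 without array 2, with HRP1 lowest at -1.81 ± 0.032.

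Among genes of the dividing cell, B-type cyclins and core histones were mostly lower, and the whole cell cycle list was mixed. The G1 cyclins CLN1 and CLN2 read -1.52, -1.17 and -1.23 and -1.15, -0.79 and -1.17. The other G1 cyclin, CLN3, rose slightly, at 0.39, 0.59 and 0.19 (limma's adjusted p = 0.00726). Its call was lost without array 1 (adjusted p = 0.0651) or array 2 (adjusted p = 0.0579). The B-type cyclins fell in all 6 cases (median -0.74), with CLB5 at -0.85 ± 0.067, CLB6 at -0.88 ± 0.15, CLB1 at -0.82 ± 0.051 and CLB2 at -0.66 ± 0.16. Without array 1 the calls of CLB3 (adjusted p = 0.0554) and CLB4 (adjusted p = 0.179) were lost, and without array 2 that of CLB4 (adjusted p = 0.0522). The cyclin and cell cycle list as a whole had 17 of 76 risen and 24 fallen, near the share of all genes. Core histones fell in 7 of 8 cases (median -0.75), HTA2 most (-1.36, -1.10 and -1.19), and HHT2 was not called (-0.16 ± 0.26). In DNA replication 36 of 65 fell and 8 rose, or 23 and 2 without array 1. The sliding clamp POL30 was at -1.41 ± 0.23, the polymerase subunit POL1 at -1.26 ± 0.13 and the flap nuclease RAD27 at -1.07 ± 0.072. The MCM helicase had 2 of 6 subunits risen and 2 fallen, or 0 and 1 without array 1. The replication licensing gene TAH11 rose (1.47 ± 0.046).

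DNA repair genes rose in 26 of 72 cases and fell in 15, with the photolyase PHR1 at 1.84, 1.92 and 1.99, the excision factor RAD16 at 1.66, 1.37 and 1.52 and the mismatch factor MSH6 at -1.49, -1.37 and -1.06. These counts were 17 and 8 without array 1, and 17 and 23 when centred on the genes missing from the strain. Microtubule and kinetochore genes fell in 38 of 73 cases and rose in 4, or 21 and 2 without array 1. CIN2, which helps fold tubulin, was lowest (-2.07 ± 0.32). Actin and polarity genes were divided at 30 up and 31 down of 89, or 21 and 20 without array 1. The polarisome protein SPA2 fell to -1.75, -1.87 and -1.19, while 5 of 7 subunits of the actin-branching Arp2/3 complex rose. Meiosis and sporulation genes rose in 27 of 59 cases and fell in 2, most of all RIM4 (3.01 ± 0.11) and SPS100 (2.32 ± 0.18).

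More genes of stress signalling rose than fell. In the list of stress transcription factors and kinases 35 of 58 rose and 4 fell (median 0.32). The kinases YPK2 and RCK1 were at 2.10 ± 0.12 and 1.94 ± 0.13. The regulators named above were in this list, MSN4 at 0.73, 0.98 and 0.98, MSN2 at 0.54, 0.63 and 0.83 and HSF1 at 0.62, 0.50 and 0.52, and are given after their values were seen. Around protein kinase A 6 of 10 genes rose and 2 fell. IRA2, which switches Ras off, read 1.61, 1.34 and 1.81, and RAS1 read -1.15, -1.03 and -1.21. The cyclic AMP phosphodiesterases PDE1 (1.17 ± 0.058) and PDE2 (1.10 ± 0.036) and the inhibitory subunit BCY1 (1.02 ± 0.13) rose. The catalytic subunits differed, TPK2 at 1.22, 1.02 and 1.18 and TPK3 at -0.81, -1.01 and -1.01.

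Leaving out array 1 kept 77.5% of all calls and gave 948 risen and 1204 fallen genes. Whether some lists lost more calls than that share was not tested. In several lists the smaller count was also lower without array 1. Without it fallen genes numbered 2 in place of 5 in glycolysis, 1 in place of 5 in the peroxisome list, 2 in place of 5 for permeases and 1 in place of 4 for stress transcription factors and kinases. Risen genes numbered 5 in place of 9 in both the ergosterol list and the glycosylation list, and 3 in place of 6 in the nuclear pore list.

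Set beside each other, 32 of 61 function lists had a median above 0 and 29 below. The highest was that of other stress-marker genes, a list of known stress-response genes chosen for that response, where 35 of 37 rose. Glycerol followed at 1.18. The lowest were translation factors and tRNA synthetases at -1.08, purine synthesis at -0.79 and pyrimidine synthesis at -0.75. For 10 lists the median was within 0.11 of 0 and changed sign in some setting, and no direction is given for them: mitochondrial ribosome, phospholipids, sphingolipids, metals, heme, arginine, endosomes, cell wall, osmotic and mating signalling, and DNA repair.

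**Figure D3:**
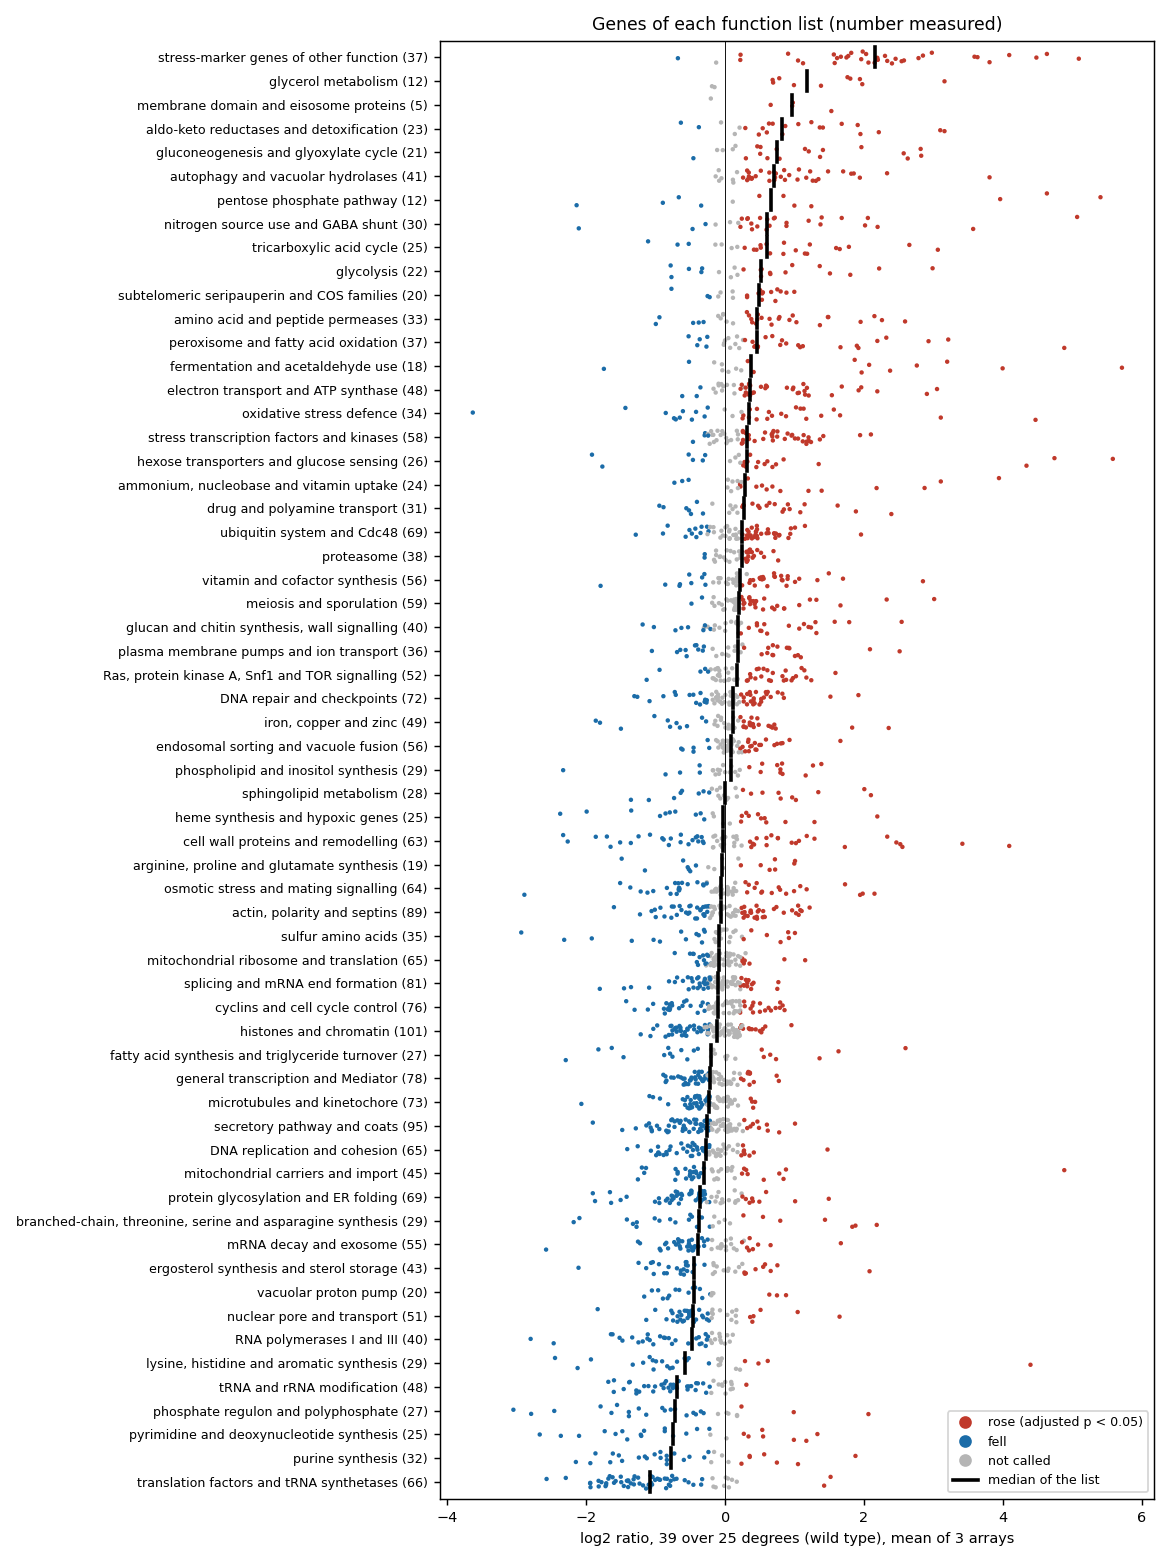
Log2 ratio of 39 °C over 25 °C (mean of 3 wild-type arrays) of every gene of each function list; points are genes coloured by call and bars are list medians. Stress-marker genes lie highest with a median of 2.15, translation factors and tRNA synthetases lowest at -1.08, and most lists hold genes on both sides of 0.

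Many of the splits above fell between paralogs, and 72 pairs were listed to look at them, of which 64 were measured on the arrays. In 16 pairs the first gene rose and the second fell, in 19 both rose, in 9 both fell, and in 20 at least 1 gene was not called. Where 1 form is known mainly from stress or respiration it was listed first, an order set with earlier results of these data known, and no pair had the first gene fall and the second rise. The pair difference had the same sign on all 3 arrays in 55 pairs and was at least 2-fold on all 3 in 29. TKL2 exceeded TKL1 by 6.46, 5.79 and 5.97 on arrays 1 to 3, HEF3 exceeded YEF3 by 4.05, 3.51 and 4.42, and URA8 exceeded URA7 by 3.73, 3.40 and 3.48. HXK1 exceeded HXK2 by 3.75, 2.69 and 3.52, and PYC1 exceeded PYC2 by 3.23, 2.83 and 3.20. Without array 1 the count of opposite calls was 11, since HXK2 (in 2 pairs), CDC19, CYC1 and TRX2 lost their calls (adjusted p = 0.0725, 0.0725, 0.0653 and 0.118). The sign of the array mean of each was the same there. TRX2 was at 0.35 ± 0.18 and also lost its call without array 2 (adjusted p = 0.0556).

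**Figure D4:**
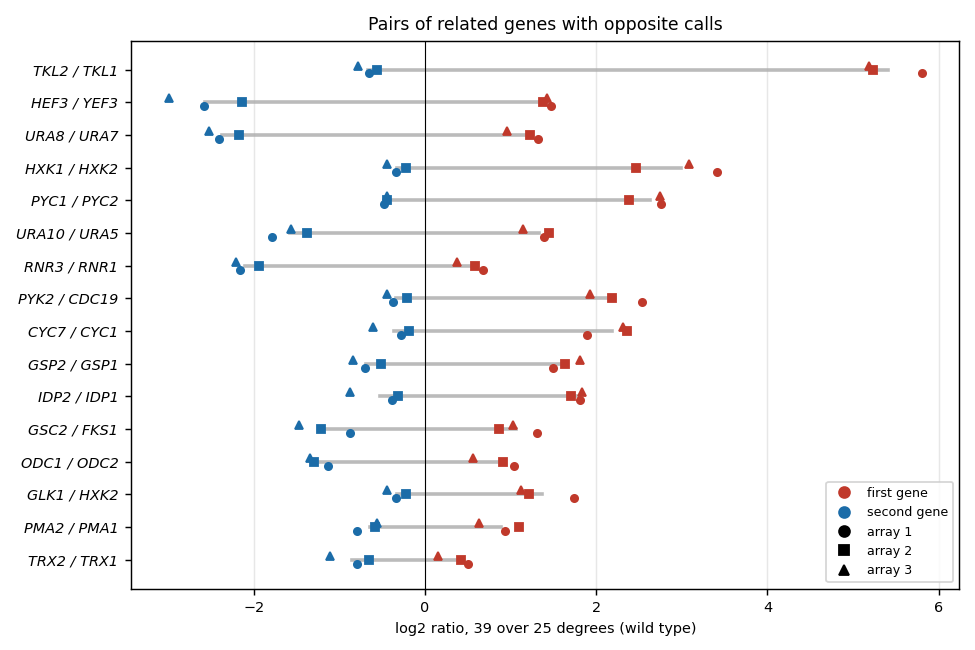
Log2 ratio of 39 °C over 25 °C of both genes of each measured paralog pair with opposite calls; points are the 3 wild-type arrays and the line joins the means. In every pair the first gene lies above 0 and the second below it.

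The rpd3 deletion was set beside the wild type to see where its response differed. Over all genes 1012 (24.8%) were higher and 854 (21.0%) lower in the mutant by limma's adjusted p under 0.05. RPD3 itself, as a ratio within each strain, read 0.19, 0.20 and 0.26 in wild type, against -0.11, -0.03 and -0.08 in the mutant. With every array centred on the genes missing from the strain, 1564 were higher and 398 lower. Without mutant array 1 the counts were 643 and 450, and without wild-type array 1 or 2 they were 695 and 480 or 695 and 507. Of the 309 genes that rose by at least 2-fold in wild type, 170 were lower and 12 higher in the mutant, and of the 253 that fell, 126 were higher and 14 lower. These genes were chosen on the wild-type values, which alone favours a smaller change elsewhere, so the counts are a description. Their medians were 1.54 in wild type and 1.01 in the mutant for risen genes, and -1.37 and -0.89 for fallen ones.

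By function, in electron transport 27 of 48 genes had a lower ratio in the mutant, with 3 higher, and for autophagy 19 of 41 were lower and 1 higher. Centred on the genes missing from the strain, 14 and 10 of them were lower and 4 and 6 higher. SDH1 read 1.80, 1.59 and 1.55 in wild type, against 0.22, 0.50 and 0.03 in the mutant (difference -1.40 ± 0.15, SE, adjusted p = 0.000803). For DNA replication 37 of 65 genes were higher in the mutant and 4 lower, and for RNA polymerases I and III 21 of 40 were higher. Without mutant array 1 the electron transport and replication counts were 13 lower and 24 higher. PRI2, a primase subunit, read -0.84, -0.89 and -0.93 in wild type, against 0.37, 0.44 and 0.31 in the mutant (1.26 ± 0.10, adjusted p = 0.000377). The subtelomeric seripauperin and COS genes had a median of 0.49 in wild type, against -0.91 in the mutant, where 18 of 20 were lower, also after that centring and without any 1 array. COS8, the highest of them in wild type, read 1.07, 0.91 and 1.00 there and -0.91, -0.58 and -0.93 in the mutant. These families are near-identical in sequence, so their members are not independent readings.

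**Figure D5:**
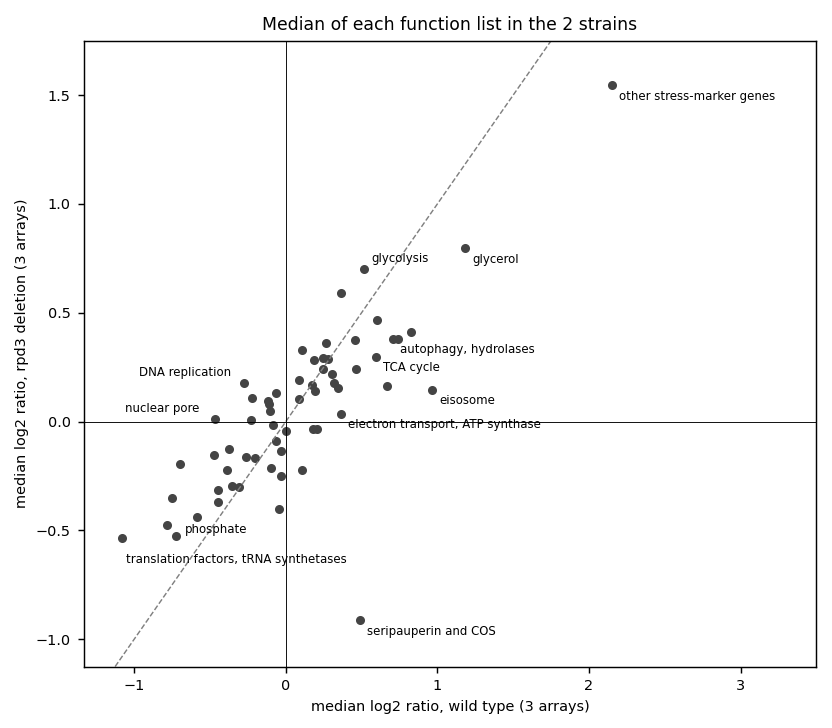
Median log2 ratio of 39 °C over 25 °C of each function list in wild type (horizontal) and in the rpd3 deletion (vertical), 3 arrays each; the dashed line marks equal values. The seripauperin and COS list lies far below the line, at 0.49 and -0.91, and stress-marker genes lie at 2.15 in wild type.

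In 105 genes that rose in wild type the mutant fell, with the strain difference called, and in 213 the wild type fell and the mutant rose. ERG28, an ergosterol pathway scaffold, read 0.56, 0.68 and 0.07 in wild type, against -1.79, -1.27 and -1.79 in the mutant. The phosphatase gene SDP1 read 1.49, 1.31 and 0.90 and -0.66, -0.32 and -1.05. In the other direction SPA2 read -1.75, -1.87 and -1.19 and 0.92, 0.37 and 1.56, the vesicle tether USO1 -1.38, -1.44 and -0.46 and 0.85, 1.21 and 1.97, and the condensin gene SMC2 -1.11, -1.38 and -0.41 and 1.09, 1.00 and 1.50. The genes of this paragraph were chosen after their values were seen.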

How the data were processed

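The values were log ratios deposited by the authors for the spots of 6 arrays with 2 channels each. The deposited ratios were read here as log2 of heated over control, which no source states. Per the submitters' processing notes the authors used limma, with no version. How they corrected background and normalized was not given in the sources used here. Values read by the scanner did not enter. Of 45220 spots 28532 had a gene symbol, and their values were averaged per gene and array (7 spots for 4070 genes, 14 for 3). Symbols were updated through the RefSeq R64 gene table, which replaced 125 and left 8 of 4073 unmatched.

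Each gene's 3 wild-type arrays were tested against 0 with lmFit and eBayes of limma 3.58.1 in R 4.3.3 (prior degrees of freedom 6.01), and the strains were compared in a fit of all 6 arrays. P-values were adjusted by Benjamini-Hochberg over all 4073 genes, with a threshold of 0.05, and measure the spread between 3 cultures only. Data were also simulated in 5 runs, with normal noise around 0 and 200 of 4073 genes changed. There the wild-type test found 58.8%, 91.8% and 99.6% of changes by a log2 ratio of 0.5, 1 and 2, with 3.66% false calls. Far fewer genes changed there than the 68.0% called in the real data, and no dye effect or shift of zero was simulated. These rates therefore need not hold for the real arrays.

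Genes were sorted into 61 function lists (2602 genes). The genes, lists, order of pairs and naming rule were chosen with earlier results of these data known, and 45 complexes or steps within lists were composed, and 5 list assignments corrected (DDR2, DDR48, DAN1, SGA1 and RET1 were taken out of a list), after values were seen. The rule named the 20 highest and 20 lowest genes outside the lists set aside, per list the 3 most changed in its majority direction and 1 in the other, paralog pairs, and members of lists or steps with at most 12 measured. Alternatives for the wild type were all 6 arrays in 1 fit, each array left out and 2 centrings (the median of named genes, or of the 4 genes missing from the strain). Further ones were quantile normalization, the median over spots, a limit on spot spread (SD 0.5), removal of a trend with gene length and a test against 1.2-fold. For the strain difference only a replicate block, each array left out and centring on the genes missing from the strain were tried.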

Additional observations from a re-analysis of the deposited data

Results flagged for a closer look

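Of the 40 genes at the ends of the wild-type response, 17 were called different between the strains in their response to heat by limma's adjusted p, a share near the 45.8% of all genes so called. Lower in the rpd3 deletion were TKL2 (difference -2.09 ± 0.50, SE, adjusted p = 0.013), PHM7 (-2.58 ± 0.49), ARO10 (-1.48 ± 0.26), CRC1 (-1.42 ± 0.38), CTT1 (-1.70 ± 0.45), ARO9 (-1.02 ± 0.29), GND2 (-1.59 ± 0.40) and GAD1 (-1.18 ± 0.35). All 8 were also above 0 in the mutant, PHM7 at 2.56, 3.56 and 1.40 and TKL2 at 3.29, 4.42 and 2.22 on its 3 arrays. With the arrays centred on the genes missing from the strain, ARO9 was no longer called (-0.78, adjusted p = 0.0529).

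Higher in the mutant were MTR4 (difference 2.47 ± 0.29, SE, adjusted p = 0.000982), URA7 (1.84 ± 0.18), TIF3 (1.60 ± 0.26), MIS1 (1.59 ± 0.21), SAM1 (1.55 ± 0.19), RPA135 (1.42 ± 0.18), URA1 (1.29 ± 0.20), RPA190 (1.2 ± 0.22) and FAA4 (1.2 ± 0.19). MTR4 read -0.09, -0.76 and 0.51 in the mutant, against -2.62, -2.59 and -2.52 in wild type. The genes were chosen on the wild-type values, which alone favours a smaller change in the mutant, the direction these differences took.

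Signal also appeared in spots to which the platform's annotation gives no symbol and which entered no comparison. Of 16678 such spots with a value, 1364 (8.18%) were at least 2-fold up and 522 (3.13%) at least 2-fold down on all 3 wild-type arrays. Among the 28532 named spots the counts were 1963 (6.88%) and 2769 (9.7%).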

How the results depend on the processing

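Of 524 named genes with a call, none changed direction under the 11 alternatives tried for the wild type, and 94 were not called when the test asked for more than 1.2-fold, 59 without array 1 and 34 when centred on the genes missing from the strain, the largest losses. The 1.2-fold test called 801 risen genes, 1040 fallen genes and 10 opposite paralog pairs. Between 66.4% and 99.9% of all 2771 calls were kept. Leaving out 1 wild-type array gave 948 to 1322 risen and 1204 to 1623 fallen genes, 338 to 364 and 480 to 494 at 2-fold, 31 to 33 lists with a positive median and 11 to 17 opposite pairs. For the strain difference, leaving out 1 array gave 643 to 1202 higher and 450 to 1016 lower genes, and centring on the genes missing from the strain gave 1564 and 398. Where a result changed, the cause was not tested. With the replicate block the strain difference had 1131 higher and 962 lower genes, but same-numbered arrays deviated together with correlations of only -0.22, 0.21 and 0.418, so the numbers were not taken to pair the cultures. Every value rests on 3 arrays a strain, dyes were not exchanged, and signal over background was not analysed here. The promoter motif description planned for genes at both ends was not run, as no promoter sequence was used here.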

Other observations

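Of the 4073 genes, 1111 were in none of the function lists, and among them 69 rose and 42 fell by at least 2-fold. The genes given here were chosen after their values were seen. DIA3, known from invasive growth, read 3.45, 3.38 and 3.41 on the 3 wild-type arrays, YRO2, a membrane protein of the heat shock protein 30 family, 3.53, 2.93 and 3.38, PDH1, a mitochondrial protein of propionate use, 3.29, 2.98 and 3.15, and BOP2, of unknown function, 2.96, 2.84 and 3.14. All 4 lay above 2.8 on every array.

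The enolase-related genes ERR1 and ERR2 are near-identical and not separable here. ERR1 read 3.10, 3.03 and 2.31 in wild type, against 0.36, 0.79 and -0.06 in the mutant. ERR2 read 2.96, 2.99 and 2.62 in wild type, against -0.17, -0.03 and -0.41 in the mutant. GAL7, of galactose use, read 1.65, 1.91 and 1.71 in rich medium, a rise of 3.38-fold.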
